A study of Mus musculus with 60 samples.

Results

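The measurements described here are the 8 arrays that set trichostatin A (TSA) treated cells against the same cells before treatment, 4 arrays at 6 h and 4 at 12 h, of 60 arrays in all. They were chosen by their labels alone. The cells were HD-MEL cells, a mouse erythroleukemia line (T-3-Cl-2-0.fl) that is readily induced to differentiate, and the TSA dose was 30 nM. The rest of the study treated the line with TSA for 1, 24 or 36 h, with 5 mM hexamethylene bisacetamide (HMBA) or with 1.5% dimethyl sulfoxide (DMSO) for 1, 6, 12, 24 or 36 h, which gave 15 conditions of 4 arrays each. Every array also held RNA from cells before treatment. Whether this was 1 extract or several is not given, and all conditions were treated as sharing it. No untreated culture of the same age was labelled. The labels mark the 4 arrays of each condition as technical replicates, so TSA at 6 h and TSA at 12 h are each represented by 1 treated RNA.

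Murine erythroleukemia cells are red cell precursors transformed at a stage before hemoglobin is made. They keep dividing until an inducer such as DMSO or HMBA sets them on the path to terminal red cell differentiation, with hemoglobin synthesis and an exit from the cell cycle. TSA inhibits histone deacetylases, the enzymes that remove acetyl groups from histone tails, and inhibitors of this class raise histone acetylation and change the transcription of many genes, in both directions.

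Each array was a pair of slides of spotted cDNA clones, with treated and untreated RNA in different dyes (Cy3 and Cy5). Replicates 1 and 2 carried TSA-treated RNA in Cy5, replicates 3 and 4 carried it in Cy3, so a real change keeps its sign over the 4 arrays while a dye effect turns round. Values are given as log2 (after / before), where 1 unit is a doubling and 0 is no difference from before treatment. The 8 arrays listed 18732 to 19587 clones each, with median intensities of 322 to 835 for treated RNA and 405 to 897 for RNA before treatment. Clones were compared if all 8 arrays and at least 3 of the 4 arrays of every other condition listed them, which left 13736 clones. The files identify clones by plate and well and do not pair them with genes, and 0 of the identifiers matched the gene table of the mouse reference, so no gene, pathway or marker of the red cell lineage could be read from these arrays, and the cell type label was not checked. The 4 clones named below were picked by size and by agreement over arrays.

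Across all compared clones, arrays with the same dye orientation correlated at r = 0.50 (Cy5) and 0.62 (Cy3) at 6 h and at 0.43 (Cy5) and 0.60 (Cy3) at 12 h. Arrays of opposite orientation correlated at 0.22 to 0.37 at 6 h and at 0.23 to 0.33 at 12 h. These correlations are across clones, which are not independent replicates. All were positive, so the ratios of both orientations ran the same way, after over before, at both times. Most single clones did not keep 1 sign, since 32.8% did over the 4 arrays at 6 h and 33.2% at 12 h.

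After 6 h of TSA, 100 of the 13736 clones (0.728%) lay at least 1 log2 unit from their level before treatment, in 1 direction, on all 4 arrays. Of these, 56 were higher (0.408%) and 44 were lower (0.32%), and 0 clones passed this size with a sign that followed the dye. The balance at 6 h depended on the normalization, since median centring of each slide in place of loess gave 34 higher, 49 lower and 1 that followed the dye. After 12 h, 84 clones (0.612%) did so, 32 higher (0.233%) and 52 lower (0.379%), and 1 further clone followed the dye. At both times, on 8 of 8 arrays, 34 clones (0.248%) passed, 13 of them higher (0.0946%) and 21 lower (0.153%). With all arrays scaled to the same spread these were 7 higher and 18 lower. The balance also moved when medians of plate rows A, C, E and G and of rows B, D, F and H were removed. It was then 18 higher and 20 lower at both times, and 33 higher and 38 lower at 12 h. With the median of every single plate row removed it was 8 higher and 14 lower at both times. Agreement in sign at any size was wider, with 1179 clones above 0 (8.58%) and 1165 clones below 0 (8.48%) on all 8 arrays, together 17.1% of the clones compared. On the 4 arrays of 1 time, 32.8% of the clones shared a sign at 6 h (16.2% above 0, 16.6% below) and 33.2% at 12 h (15.3% above 0, 17.9% below). Plate rows A, C, E and G held 63.1% of those above 0 at 12 h and 26.2% of those below, against 48.4% of all compared clones. For the 8 arrays these shares were 54.5% and 32.3%, and at 6 h 47.5% and 44.9%. The part of this placement in the sign counts was not tested. The counts by size and by sign rest on 1 treated RNA per time and carry no test. In RNA from a whole culture, fewer cells with a transcript and less of it per cell cannot be told apart.

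**Figure D1:**
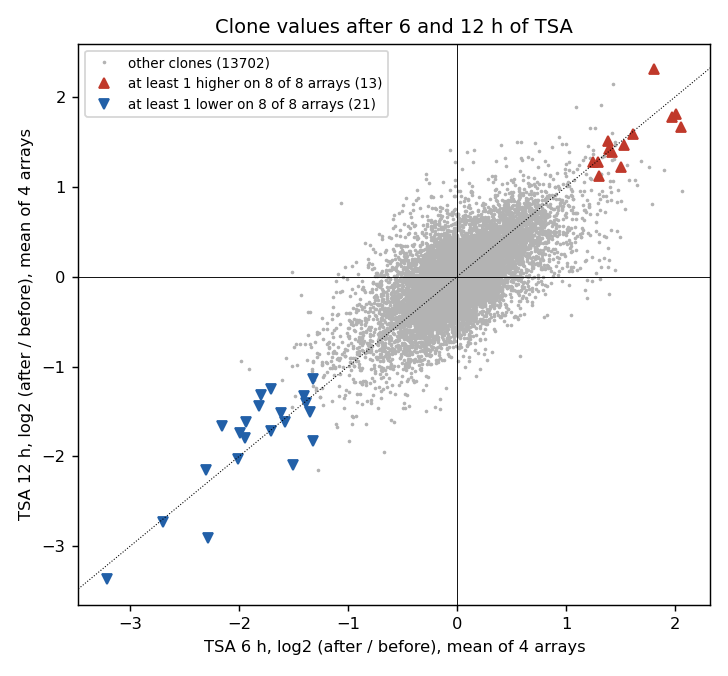
Each point is a clone, placed by its mean log2 (after / before) over 4 arrays at 6 h of TSA (x axis) and at 12 h (y axis), and the dotted line marks equal values. The 13 clones that were higher on 8 of 8 arrays (triangles up) had means of 1.12 to 2.30 and the 21 that were lower (triangles down) had means of -3.37 to -1.14. Both sets lie near the line, which follows in part from choosing clones that pass at both times.

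The largest of these differences was a loss of signal. Clone H3035B01 read -3.33, -3.31, -3.12 and -3.08 log2 units on the 4 arrays at 6 h and -3.60, -3.38, -3.22 and -3.27 at 12 h, in the order of replicates 1 to 4. All 8 values lay within 1 log2 unit of each other, and the dye orientations differed by less than that. Its means were -3.21 ± 0.13 at 6 h and -3.37 ± 0.17 at 12 h (SD over 4 technical arrays), which is a signal 9.25-fold and 10.3-fold lower than before treatment. In intensity, the deposited median over the 8 arrays was 304 for TSA-treated RNA and 3066 for RNA before treatment. At 1 h of TSA the clone read -1.06, and at 24 and 36 h it read -3.21 and -3.003.

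Among the clones that were higher, H3055A12 had the highest weakest array. It read 1.84, 2.16, 1.60 and 1.61 log2 units on the 4 arrays at 6 h and 1.87, 2.25, 2.39 and 2.72 at 12 h. The values at the 2 times overlap. Its means were 1.80 ± 0.26 at 6 h and 2.30 ± 0.35 at 12 h (SD over 4 technical arrays), which is 3.49-fold and 4.94-fold above the level before treatment. It stood at 0.40 at 1 h, 2.23 at 24 h and 1.17 at 36 h of TSA.

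**Figure D2:**
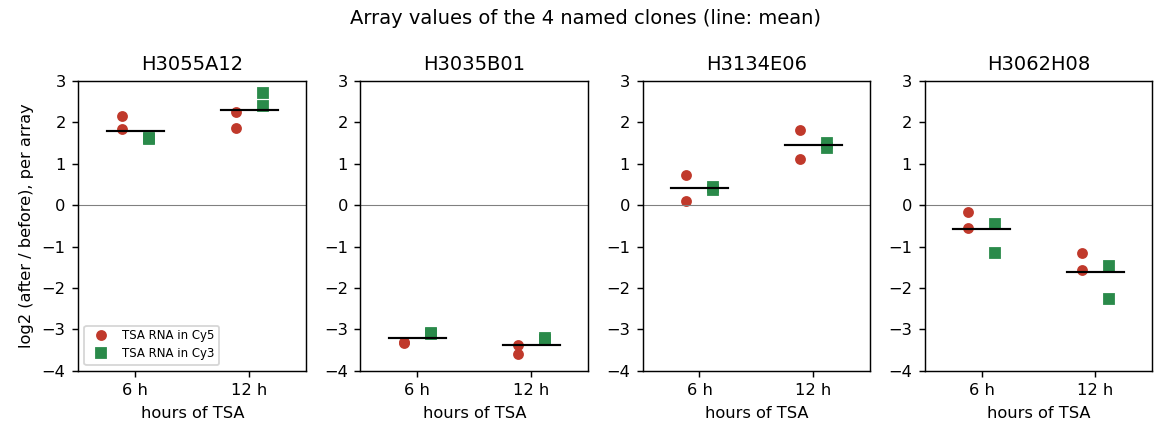
Log2 (after / before) on each of the 8 TSA arrays for the 4 named clones, with circles for arrays that held TSA-treated RNA in Cy5, squares for Cy3 and a line at the mean of the 4 arrays. H3055A12 and H3035B01 stay on 1 side of 0 at both times, with means of 1.80 and 2.30 and of -3.21 and -3.37, while H3134E06 and H3062H08 have no overlap between the 6 h and the 12 h arrays.

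At 6 h the 13 higher clones had a median of 1.50 (range 1.25 to 2.06), and at 12 h of 1.46 (1.12 to 2.30). They were chosen for large values at 6 and 12 h, so lower medians at the other times of TSA follow in part from the choice. These medians were 0.33 at 1 h (-0.23 to 0.68), 0.99 at 24 h (0.47 to 2.23) and 0.72 at 36 h (0.15 to 1.50). H3055A12, at 2.23, was higher at 24 h than its mean at 6 h, as was another of the 13 (2.11 against 2.01). At 24 h, 5 of the 13 still had a mean of at least 1 log2 unit, and at 36 h 4 of them did. They were mostly dim spots before treatment, with a median intensity of 687 against 943 for all compared clones. The weakest array of the last clone counted read 1.05 and that of the first clone left out read 0.999.

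The 21 lower clones had a median of -1.80 at 6 h (-3.21 to -1.32) and of -1.66 at 12 h (-3.37 to -1.14). At the other times of TSA their medians were -0.51 at 1 h (-2.21 to -0.16), -1.06 at 24 h (-3.21 to 0.24) and -0.73 at 36 h (-3.003 to 0.91). As early as 1 h, 5 of the 21 had a mean of at most -1, and 11 of them did at 24 h and 9 at 36 h. By 36 h, 3 of the 21 were above 0. Their spots were mostly brighter than the median clone before treatment, with a median intensity of 1439 (387 to 5845) against 943 for all compared clones. Of the 21, 19% were dimmer than the median clone. The weakest array of the last clone counted read -1.03 and that of the first clone left out read -0.976.

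The 34 clones came from many plates, 13 plates for the 13 higher clones and 20 plates for the 21 lower ones. Between 6 and 12 h the median size of their difference was 0.12 log2 units for the higher clones and 0.16 for the lower ones. The widest was 0.50 among the higher clones and 0.62 among the lower ones. These clones were chosen for passing 1 log2 unit at both times, so small differences follow in part from the choice. The median SD over the 4 technical arrays at 6 h was 0.26 for both sets, and choosing clones that pass on every array holds that spread down.

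The other inducers give these same clones values of their own, also measured against RNA from before treatment. At 6 and 12 h, the median of the 13 higher clones was 1.05 and 1.22 with HMBA, and 0.57 and 0.52 with DMSO. The median of the 21 lower clones was -1.49 and -1.48 with HMBA and -1.04 and -0.83 with DMSO. For H3055A12 the values were 1.96 at 6 h and 2.63 at 12 h of HMBA and 1.18 and 1.78 with DMSO. For H3035B01 they were -3.91 and -3.71 with HMBA and -2.12 and -1.94 with DMSO. The agents may share their RNA from before treatment, so these values are set side by side without a test of likeness.

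**Figure D3:**
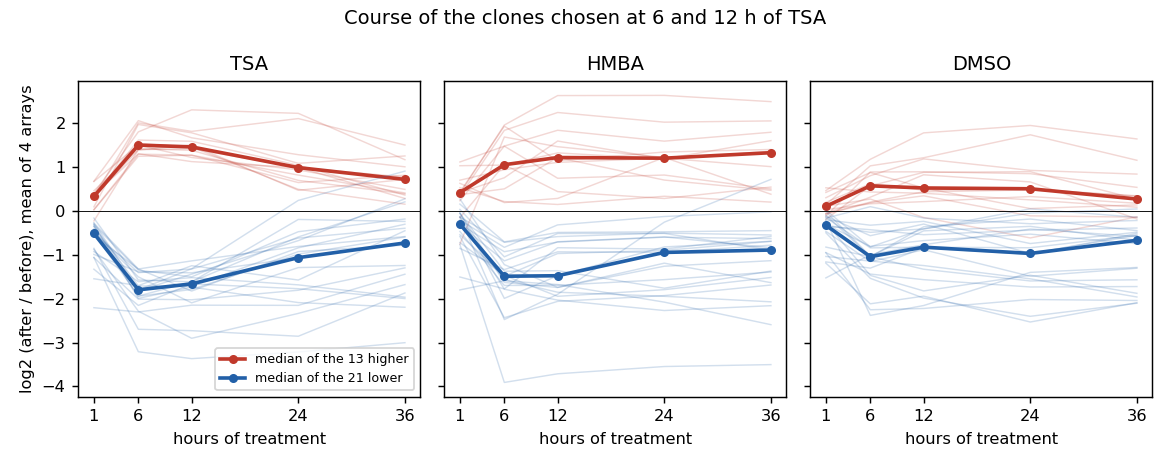
Log2 (after / before) by hours of treatment with TSA, HMBA and DMSO for the clones chosen on the 6 and 12 h TSA arrays, with thin lines for single clones and thick lines for the median of the 13 higher and the 21 lower clones. In TSA the medians of 1.50 and -1.80 at 6 h are followed by 0.72 and -0.73 at 36 h, and the 2 HMBA arrays at 1 h with treated RNA in Cy3 correlated at r = -0.33, so the direction of that single time point is not settled.

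A larger group of clones moved by smaller amounts. In a limma fit over the 15 condition values, the mean of TSA at 6 and 12 h differed from the level before treatment for 2202 of the 13736 clones (16%, Benjamini-Hochberg adjusted p below 0.05), of which 1166 rose (8.49%) and 1036 fell (7.54%). The median size of the change among them was 0.59 log2 units, and 221 changed by at least 1 unit. The fit averages the dye orientations and does not require that they agree. Of the 2202 clones, 1561 had the same sign on all 8 TSA arrays, against 17.1% of all compared clones, and the calls used these same arrays. The spread in this test is that between neighbouring times of 1 chemical, so it includes no second culture of the same condition and leaves out the spread of the baseline RNA. The median half-width of the 95% interval was 0.29 log2 units. H3035B01 fell by 3.29 ± 0.12 log2 units (SE, adjusted p = 2.23e-06) and H3055A12 rose by 2.05 ± 0.25 (SE, adjusted p = 0.00177), both chosen for their size on these arrays.

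The clones that rose had medians of 0.26, 0.59, 0.58, 0.18 and 0.02 log2 units at 1, 6, 12, 24 and 36 h of TSA. The clones that fell had medians of -0.20, -0.53, -0.65, -0.42 and -0.37 at these times. Being called used the values at 6 and 12 h, so a smaller size at other times follows in part from the choice. The calls were unevenly placed on the clone plates. Plate rows A, C, E and G held 63% of the clones that rose and 37.2% of those that fell, against 48.4% of all compared clones, and the part of this placement in the calls was not tested. With the medians of these row groups removed from every array, 2294 clones were called, 1942 of them the same as before. Without replicate 2 of every condition, 1436 of the 12049 clones that could be compared were called.

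Against HMBA at the same times, TSA differed for 129 clones (0.939%, limma, adjusted p below 0.05), 48 higher with TSA (0.349%) and 81 lower with TSA (0.59%). At 6 and 12 h the 48 clones had medians of 0.41 and 0.48 with TSA, against -0.75 and -0.64 with HMBA. Of these 48, 41 were above 0 at 6 h of TSA and 3 were above 0 at 6 h of HMBA. The 81 clones had medians of -0.22 and -0.35 with TSA, against 0.75 and 0.84 with HMBA. In this set 23 clones were above 0 at 6 h of TSA and 72 were above 0 at 6 h of HMBA. In both sets the HMBA medians lay farther from 0 than the TSA medians. Over all compared clones the HMBA arrays at these times also tended to be more widely spread. The SD of their log2 ratios was 0.54 to 0.78, against 0.43 to 0.59 on the TSA arrays. The part of this spread in the HMBA medians was not tested.

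**Figure D4:**
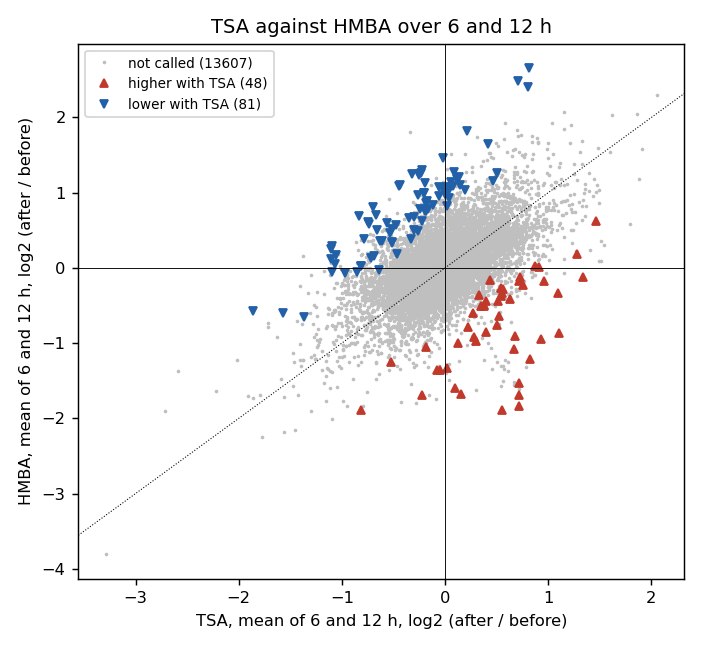
Each point is a clone, placed by its mean log2 (after / before) over 6 and 12 h of TSA (x axis) and of HMBA (y axis), with the dotted line at equal values. Of the clones that differed between the agents (limma, adjusted p below 0.05), the 48 that were higher with TSA (triangles up) lie mostly below 0 on the HMBA axis and the 81 that were lower with TSA (triangles down) lie mostly above 0 on it.

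The number of such clones depended strongly on the fit. It was 37 with all arrays scaled to the same spread, 48, 72 and 61 without replicates 2, 3 and 4, 0 with Cy5 arrays alone and 0 without the DMSO conditions, which help to estimate the spread. It was larger, at 310, with the median of every plate row removed and 201 with the row-group medians removed. Without the 24 and 36 h conditions it was 62, with 36 higher and 26 lower. At an unadjusted p below 0.05, 2093 clones differed.

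Against DMSO at the same times, TSA differed for 279 clones (2.03%, limma, adjusted p below 0.05), 198 higher with TSA (1.44%) and 81 lower with TSA (0.59%). At 6 and 12 h the 198 clones had medians of 0.57 and 0.59 with TSA, against -0.34 and -0.16 with DMSO. The 81 clones had medians of -0.71 and -0.74 with TSA, against 0.14 and 0.25 with DMSO. H3035B01, low with both agents, was lower with TSA than with DMSO by 1.26 log2 units (difference -1.26, 95% interval -1.64 to -0.88, adjusted p = 0.0206). It was chosen for low values on these TSA arrays, so the size of this difference follows in part from the choice. Over 15 alternative settings its adjusted p lay between 0.0141 and 0.121, and the call was lost with scaled arrays, where the difference was -0.73 (adjusted p = 0.0844), with either dye orientation alone and without the 24 and 36 h conditions. Clones with H4 identifiers made up 52% of the 198 higher clones against 33.6% of all compared clones. Earlier results of these data gave the DMSO arrays a different slide layout from the TSA arrays, which the sample labels do not state. If so, slide layout and DMSO cannot be told apart. The count was 74, 115 and 77 without replicates 2, 3 and 4, 0 with Cy5 arrays alone and 0 without the 24 and 36 h conditions, and it was 529 with scaled arrays and 451 with plate-row medians removed (265 higher, 186 lower).

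What changed from 6 to 12 h of TSA could be described by size but did not pass a test. In the limma fit with TSA at 12 h and at 6 h as means of their own, 0 of the 13736 clones (0%) differed between the times at an adjusted p below 0.05, the lowest adjusted p being 0.361. At an unadjusted p below 0.05, 656 clones did. The spread came from 5 other pairs of neighbouring times, and the lone TSA conditions were assumed to vary like these. The median half-width of the unadjusted 95% interval was 0.58 log2 units. After adjustment over all clones, differences as large as 1.88 were not called, so changes of this order could go undetected. Without replicate 1, 2 clones were called.

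Other clones were past 1 log2 unit at 1 time alone. By that choice they missed 1 unit on at least 1 array of the other time, so a smaller value there is largely fixed and is given as a description. The 43 clones that were higher at 6 h alone had a median of 0.78 at 12 h (-0.05 to 1.50) and of 1.35 at 6 h, and 12 of them had mixed signs over the 12 h arrays. The 23 that were lower at 6 h alone had -0.93 at 12 h (-1.42 to -0.20) and -1.37 at 6 h, and 5 of them had mixed signs at 12 h. Conversely, the 19 clones that were higher at 12 h alone had a median of 1.48 at 12 h and of 0.99 at 6 h (0.41 to 1.43). The 31 that were lower at 12 h alone had -1.39 at 12 h and -0.95 at 6 h (-1.51 to -0.31). At 24 h of TSA the 43 clones had a median of 0.36 and the 19 clones a median of 1.06. Those 19 were not spread evenly, since 16 lay in plate rows A, C, E and G and 84.2% were dimmer than the median clone before treatment, and of the 31 lower clones 23 lay in rows B, D, F and H.

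Clone H3134E06 showed the largest gain among clones that were high on every array at 12 h. It read 1.83, 1.13, 1.51 and 1.38 log2 units at 12 h and 0.73, 0.10, 0.36 and 0.44 at 6 h. The lowest 12 h array lay above the highest 6 h array. Its means were 1.46 ± 0.29 at 12 h and 0.41 ± 0.26 at 6 h (SD over 4 technical arrays), a difference of 1.06 ± 0.41 log2 units (SE) that did not pass the test over all clones (limma, adjusted p = 0.991). It was at 0.0022 at 1 h, 1.52 at 24 h and 0.60 at 36 h of TSA.

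The same clone was below its baseline with the other agents, at -1.01 and -0.88 after 6 and 12 h of HMBA and at -1.48 and -1.31 with DMSO. The clone was chosen for its high TSA values at 12 h, and the comparisons with DMSO and HMBA use these same arrays. Their sizes, intervals and adjusted p thus follow in part from the choice. Over both times the clone was higher with TSA than with DMSO by 2.33 log2 units (95% interval 1.51 to 3.14, adjusted p = 0.0211). It was higher with TSA than with HMBA by 1.88 (95% interval 1.06 to 2.69, adjusted p = 0.0499), which is just inside the threshold. This adjusted p moved between 0.0296 and 0.201 over 17 alternative settings. The settings that lost the call included no background correction, scaled arrays, the deposited ratios, a trended and robust prior and either dye orientation alone. It was also lost without replicate 2, without replicate 3 and without the DMSO conditions. Against DMSO the adjusted p lay between 0.00709 and 0.133 over 17 settings. If the DMSO arrays had a different slide layout, that layout and DMSO cannot be told apart for this clone either.

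Clone H3062H08 went the other way. It read -1.57, -1.16, -1.47 and -2.27 log2 units at 12 h and -0.16, -0.54, -0.45 and -1.15 at 6 h. The arrays of the 2 times did not overlap, but the highest 12 h array, at -1.16, lay next to the lowest 6 h array, at -1.15. Its means were -1.62 ± 0.47 at 12 h and -0.58 ± 0.41 at 6 h (SD over 4 technical arrays), a difference of -1.04 ± 0.26 log2 units (SE) that did not pass the test over all clones (limma, adjusted p = 0.943). The difference was smaller without background correction (-0.68) and with the deposited ratios (-0.64). It is a dim spot, with median intensities of 183 for TSA-treated RNA and 386 for RNA before treatment, and it stood at -0.34 at 1 h, -1.24 at 24 h and -0.99 at 36 h of TSA. On the Cy5 arrays the listed intensity was lower after treatment at both times. At 6 h these arrays listed 67 after and 236 before (replicate 1) and 79 and 354 (replicate 2). At 12 h they listed 109 and 504, and 87 and 474. Normalization reduced the 6 h Cy5 falls to -0.16 and -0.54, so their gap to 12 h is wider than in the listed intensities. On the Cy3 arrays at 6 h it was 463 after and 273 before (replicate 3) and 256 and 255 (replicate 4). The values below 0 on these arrays thus appear only after normalization. At 12 h the Cy3 arrays listed 366 and 545, and 368 and 419.

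Counted by size alone, 66 clones (0.48%) differed by at least 1 log2 unit between 12 and 6 h with no overlap of their arrays, 33 higher at 12 h (0.24%) and 33 lower (0.24%). At any size, the 12 h arrays all lay beyond the 6 h arrays for 747 clones (5.44%), 262 higher (1.91%) and 485 lower (3.53%). At 12 h the 33 that were higher had a median of 0.79, against -0.45 at 6 h. At 12 h the 33 that were lower had a median of -0.31, against 0.82 at 6 h. The even split was not stable. Without replicate 1 the count was 168 (104 higher, 64 lower), without replicate 2 it was 98 (25 higher, 73 lower), without replicate 3 it was 139 (69 higher, 70 lower) and without replicate 4 it was 101 (63 higher, 38 lower). The deposited ratios gave 42 (28 higher, 14 lower).

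The position of a clone on its plate moved with this difference. Of the 33 clones that were higher at 12 h, 30 lay in plate rows A, C, E and G, 27 lay on the slide that carries H3 clones alone, and 90.9% were dimmer than the median clone before treatment. Of the 33 that were lower, 28 lay in rows B, D, F and H. Over all compared clones of that slide, the 12 h median of rows A, C, E and G was 0.16, against -0.02 at 6 h, and that of rows B, D, F and H was -0.18, against -0.03 at 6 h. Plate rows held 26.8% of the variance of the 12 h minus 6 h difference, 15.9% of that of the 12 h values and 7.52% of that of the 6 h values. With the row-group medians removed, 33 clones were left by size, 12 higher and 21 lower, and with the median of every single plate row removed 23 were left, 4 higher and 19 lower. The 34 clones past 1 unit at both times had no such skew, with 7 of 13 and 10 of 21 in rows A, C, E and G. Of them, 32 passed again with the row-group medians removed and 19 with the median of every plate row removed.

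**Figure D5:**
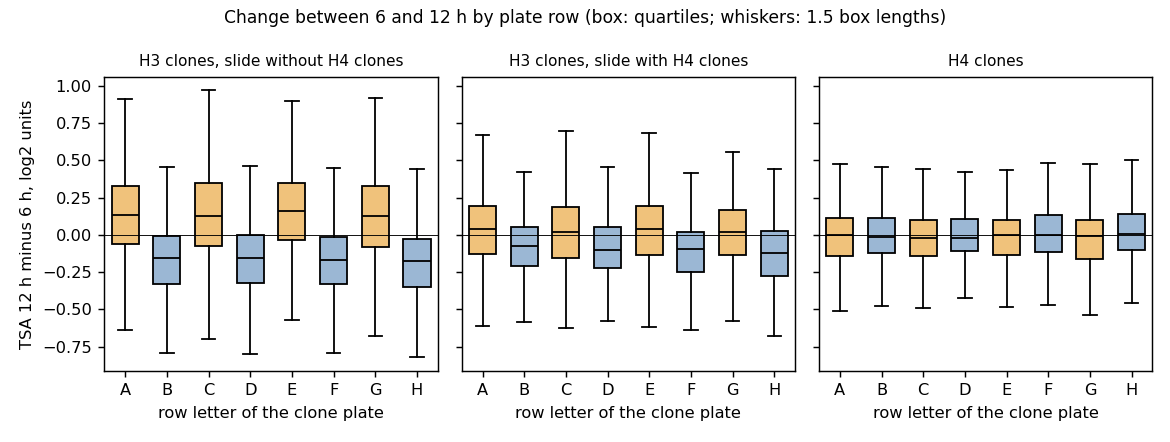
TSA at 12 h minus TSA at 6 h, in log2 units, by the row letter of the clone plate, for H3 clones on the slide without H4 clones, H3 clones on the slide with them, and H4 clones (boxes span the quartiles, whiskers reach 1.5 box lengths). On the H3 slide rows A, C, E and G have a median difference of 0.13 and rows B, D, F and H of -0.16, while the H4 clones have -0.0038 and -0.0077.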

How the data were processed

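Per the file headers, each array came as 2 deposited slide files with a clone identifier and 1 intensity per channel, on a linear scale. The authors also deposited a table of 1 linear ratio per clone and array, after over before treatment, used here as an alternative. Clones were filtered on being listed, since no background column was present. Scanning, flags, background subtraction and the centring of the ratio are not given in the sources used here.

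With limma 3.58.1 (R 4.3.3), intensities were corrected by normexp with an offset of 50, and a loess curve of span 0.3 was removed from each slide. The normalized log2 ratios of the 8 arrays correlated with the deposited ratios at r = 0.963 to 0.990. The 4 arrays of a condition were averaged over dye orientations and counted as 1 value. The 15 values were fitted with lmFit and eBayes, with 9 means (chemical by 1 h, 6 and 12 h, 24 and 36 h, 6 residual degrees of freedom) or, for 12 h minus 6 h, with 10 means (5 residual degrees of freedom). P-values were adjusted over 13736 clones. The fits were tested on simulated data.

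Members, lists and tests were chosen with earlier results of these data known. The 4 named clones were the higher and the lower clone with the best weakest array at both times, and the higher and lower clone past 1 log2 unit at 12 h with the largest change from 6 h and no overlap of arrays. Precision is limited by 1 treated RNA per time, of which the 4 arrays are technical repeats.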

Additional observations from a re-analysis of the deposited data

Results flagged for a closer look

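Clones for which the response to TSA differed from that to another agent, by the test of the difference itself, numbered 129 against HMBA and 279 against DMSO over 6 and 12 h. In the main fit the named clone H3134E06 differed from both, by 1.88 log2 units against HMBA and by 2.33 against DMSO. Its HMBA call was just inside the threshold and was lost under settings that included no background correction, scaled arrays and either dye alone. Its DMSO call was lost with either dye alone, without replicate 2 and without the 24 and 36 h conditions. H3035B01 differed from DMSO by -1.26. With arrays scaled to the same spread that difference was -0.73 and missed the threshold (adjusted p = 0.0844), and its call was also lost with either dye alone and without the 24 and 36 h conditions. H3134E06 and H3035B01 were chosen by their values on the TSA arrays, so the sizes of these differences follow in part from the choice. A different slide layout of the DMSO arrays, if present, cannot be told apart from DMSO. By Dixon's 95% criterion for groups of 4, no named clone had an outlying array at 6 or 12 h, although replicate 4 of H3062H08 was the lowest array at both times.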

How the results depend on the processing

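No paired analysis was possible because same-numbered arrays of a condition are technical repeats of 1 RNA, which were averaged. By size, the counts at 6 h, at 12 h and at both times were 571, 564 and 223 at 0.5 log2 units, 15, 12 and 7 at 1.5 units, 261, 269 and 74 with Cy5 arrays alone and 278, 282 and 105 with Cy3 arrays alone (a criterion on fewer arrays is easier to pass). Scaling the arrays gave 54 at 12 h, and removing plate-row medians gave 22 at both times. The count of clones apart between 12 and 6 h was 409 at 0.5 and 2 at 1.5 units, 352 with Cy5 and 257 with Cy3 arrays, 42 with the deposited ratios, 25 of 9593 clones listed on all arrays, 23 without plate-row and 33 without row-group medians, and 98 to 168 with 1 replicate left out. The limma count for TSA against before treatment was 1016 with Cy5 arrays and 1436 to 1908 with 1 replicate left out, and that for 12 h minus 6 h was 0 to 2. TSA minus HMBA gave 37 with scaled arrays, 310 without plate-row medians, 201 without row-group medians, 67 with a trended and robust prior, 62 without 24 and 36 h, 0 with Cy5 arrays, 0 without DMSO and 48 to 109 with 1 replicate left out. TSA minus DMSO gave 529 with scaled arrays, 451 without plate-row medians, 68 with Cy3 arrays, 0 with Cy5 arrays, 0 without 24 and 36 h and 74 to 238 with 1 replicate left out. The small 12 h minus 6 h difference of H3035B01 turned positive without background correction (0.017), with scaled arrays (0.34), with the deposited ratios (0.029), and without plate-row (0.14) or row-group medians (0.013), and passed no test. For the early change, H3134E06 missed the threshold under 7 settings and H3062H08 with Cy5 arrays alone. Apart from the fits on fewer clones or arrays, the cause of these shifts was not tested. Removal of row-group medians, the fit without HMBA 12 h and the count apart between 12 and 6 h were added after seeing the data.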

Other observations

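Among the 33 clones that were lower at 12 h than at 6 h by at least 1 log2 unit, 9 clones on 9 plates were picked, after their values were seen, for an HMBA value of at least 1.5 at 6 h. Their fall in TSA and their HMBA level at 6 h are thus fixed by the choice. Their TSA values were 1.18 to 1.45 at 6 h, -0.05 to 0.31 at 12 h and -0.71 to -0.27 at 24 h. With HMBA the same clones stood at 1.87 to 2.31 at 6 h and 0.43 to 1.15 at 12 h. Their intensities before treatment were 742 to 20242. Clones on different plates can carry the same gene, which the files do not show.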
